A study of Arabidopsis thaliana with 24 samples.

Results

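The 2 single mutants bcl7a and bcl7b were compared directly with each other, without a wild-type library in the contrast, by taking all 6 of the 24 RNA-seq libraries of the series that come from these lines (3 of bcl7b and 3 of bcl7a). The question was which transcripts differ between seedlings that lack one BCL7 paralog and seedlings that lack the other. All groups were 14-day-old Arabidopsis thaliana seedlings of the Col-0 background, grown in short days (10 h light, 14 h dark). The bcl7a line carries the T-DNA allele bcl7a-1 and the bcl7b line the T-DNA allele bcl7b-1, each as 1 insertion line, so that an effect of the gene and of anything else that differs between these lines cannot be told apart. The other genotypes share the estimate of the spread with the 6 libraries and are given beside them, as levels and in a few contrasts with WT. They are WT (Col-0), the double mutant bcl7a bcl7b, the mutants brm-3 and brm-1 of the ATPase gene BRM, and the triple mutants bcl7a bcl7b brm-3 and bcl7a bcl7b brm-1.

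SWI/SNF remodellers burn ATP to shift DNA along the histone core or to strip histones from it, which opens or closes promoters and enhancers to other proteins. In Arabidopsis, several assemblies are built around the ATPases BRM, SYD and the MINU proteins, and each carries core and accessory subunits. BCL7A and BCL7B are homologous accessory subunits named after the BCL7 proteins of animal SWI/SNF complexes. In seedlings, SWI/SNF complexes are known for a part in vegetative phase change, the switch from juvenile to adult leaves, which is timed by the microRNA miR156 and its targets, the SPL transcription factor genes.

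The genotyping primers are shown because they bound the stretch in which each T-DNA lies. They are given from 5′ to 3′, and each matched the TAIR10.1 assembly exactly and once.
bcl7a LP: tcattgatgtcaggcttttcc
bcl7a RP: agttcttccttcggtggaaag
bcl7b LP: acacaagacatgtccaaaggc
bcl7b RP: cagtttttgcttcctgcagag
BCL7A (AT4G22320) lies on the minus strand of chromosome 4 from 11792813 to 11794778 and has 3 exons. The bcl7a LP primer lay in exon 2 (chr4:11793627-11793647) and the bcl7a RP primer in exon 1 (chr4:11794705-11794725), so that the pair spans 1099 bases of the wild-type gene. BCL7B (AT5G55210) lies on the minus strand of chromosome 5 from 22396426 to 22397446 and also has 3 exons. The bcl7b LP primer lay upstream of the annotated transcription start (chr5:22397823-22397843) and the bcl7b RP primer at the boundary of exon 3 (chr5:22396757-22396777), a span of 1087 bases that runs past the 5′ end of the gene model. The insertion itself lies somewhere within each span and was not mapped here.

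The values are deposited as normalized counts, which are estimated amounts per gene divided by a factor for each library. They summed to 29857761 to 32217398 in the bcl7b libraries and 35487850 to 36751218 in the bcl7a libraries, so that the totals of the lines did not overlap. The number of genes listed at 0 was 12796 to 13472 in bcl7b and 13215 to 13506 in bcl7a, against 16191 in WT replicate 1, the most of any library. The SD of the log2 ratio between libraries was taken over the 21596 genes tested below, many of them of low level. Between libraries of 1 line it was 1.06 to 1.16 for bcl7b and 1.18 to 1.31 for bcl7a. Between a bcl7b and a bcl7a library it was 1.08 to 1.38, a range that overlaps both. The summed level of 14 root markers was 1783 to 2081 in bcl7b and 2017 to 3177 in bcl7a, and that of 9 seed markers was at most 9.72 and 19.8. The sum of 8 green-tissue markers was 402340 to 503122 in bcl7b and 501752 to 575316 in bcl7a, and that of 5 flower markers 243 to 347 and 93.1 to 245. None of the 33 marker genes tested passed the test described below. At an unadjusted p under 0.05, 2 were higher and 1 lower in bcl7b, beside 3.71% and 4.17% of all genes tested.

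Both mutated genes were low or at 0 in their own line. BCL7B was listed at 0 in all 3 bcl7b libraries and at 482, 562 and 314 normalized counts in bcl7a (452 ± 127, SD, n = 3). This separation was the clearest of the comparison (limma, adjusted p = 2.15e-06), and no fold is given against a group at 0. BCL7A was listed at 4.42, 0 and 0 in bcl7a and at 30.6, 21.9 and 21.5 in bcl7b (24.7 ± 5.11, SD, n = 3). The lines did not overlap, but the log2 difference of 3.85 ± 1.02 (SE, 95% interval 1.75 to 5.96) did not pass the adjusted test (limma, adjusted p = 0.29), and with other pseudocounts, filters, library sets and scalings it ranged from 2.25 to 6.10. The deposited levels of BCL7A are low in every line, so that this check of the bcl7a label rests on small numbers.

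Neither paralog differed detectably from WT in the line that lacks the other. BCL7B was at 382, 383 and 479 in WT, and bcl7a exceeded WT by 0.09 ± 0.78 on the log2 scale (SE, 95% interval -1.52 to 1.70, limma, adjusted p = 0.99). BCL7A was at 0, 18.1 and 30.1 in WT, and bcl7b exceeded WT by 1.59 ± 1.02 (SE, 95% interval -0.51 to 3.70, limma, adjusted p = 0.45). Both intervals still include a 2-fold difference in either direction for BCL7B and a rise well above 2-fold for BCL7A. Per kilobase of the longest annotated transcript, WT held 0, 14.9 and 24.8 normalized counts of BCL7A and 445, 446 and 557 of BCL7B. With or without this division by length, the transcript lost in bcl7b was by far the more abundant of the pair in WT seedlings. BCL7A stood at 53.0 to 91.6 normalized counts in brm-3 and at 85.8 to 107 in brm-1, both above every bcl7b library. BCL7B was also above every WT library in both, at 769 to 964 in brm-3 and 554 to 658 in brm-1.

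**Figure D1:**
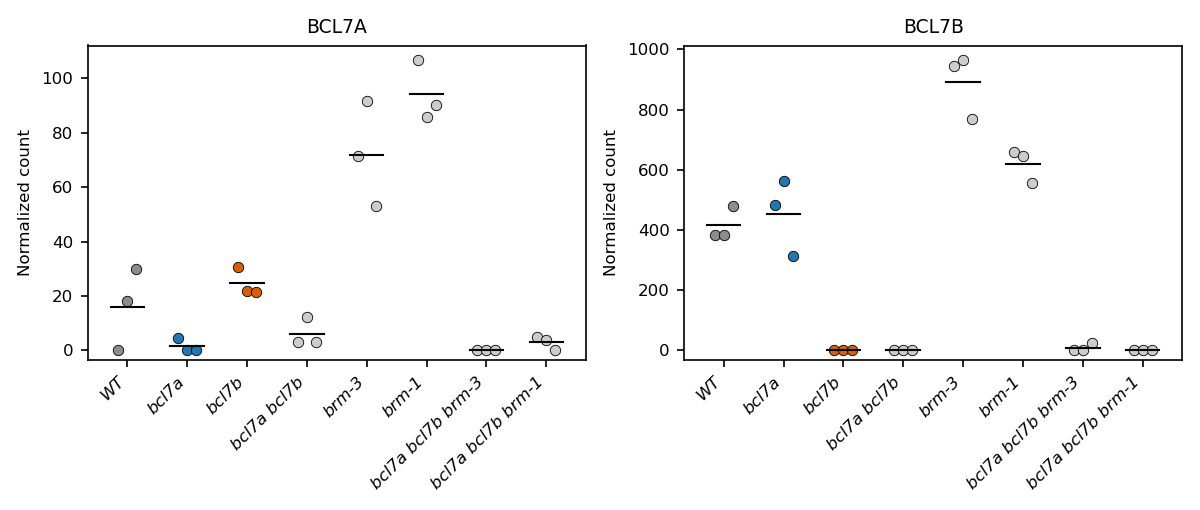
Normalized counts of BCL7A (left) and BCL7B (right) in each library of the 8 genotypes; each point is 1 library and the bar is the mean of 3. BCL7B is at 0 in the 3 bcl7b libraries and at 314 to 562 in bcl7a, while BCL7A is at 21.5 to 30.6 in bcl7b and at most 4.42 in bcl7a.

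Across the transcriptome, few genes passed the test between the lines. In a limma fit, calls needed a p under 0.05 after Benjamini-Hochberg adjustment and a log2 difference of more than 0.6 in either direction, with values put on the log2(normalized count + 1) scale. Of 21596 genes tested, 4 were called higher (0.0185%) and 5 lower (0.0232%) in bcl7b, BCL7B itself being 1 of the 5. At an unadjusted p under 0.05, 801 genes were higher (3.71%) and 900 lower (4.17%) in bcl7b. The libraries of the lines did not overlap for 1292 genes that were higher (5.98%) and 1494 that were lower (6.92%). The median log2 difference over all genes was -0.01.

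The counts of called genes were small and moved with the libraries and the scaling used. The 6 libraries fitted alone gave 7 higher and 6 lower, of which 1 and 2 were among the 9 above. With every library rescaled to the same total, 1 was higher and 2 were lower, the median over all genes moved to 0.18, and the unadjusted counts became 1660 higher and 333 lower. Leaving out bcl7b replicate 1 gave 3 higher and 18 lower. Leaving out bcl7b replicate 2 gave 1 and 2, and leaving out bcl7b replicate 3 gave 2 and 2. Without bcl7a replicate 1 there were 4 and 3, without bcl7a replicate 2 there were 2 and 4, and without bcl7a replicate 3 there were 7 and 5. BCL7B and AT3G01345 were called in each of these fits, and each of the other 7 genes lost its call in at least 1 of them.

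The precision of the comparison depended on the level of a gene. Of 4960 genes with a mean of 500 or more in the 6 libraries, 89.2% had a 95% interval of the log2 difference that lay wholly within a 2-fold change in either direction, and 0 were called. The share was 51.7% of 10038 genes with a mean of 50 to 500, of which 3 were called. It was 0.758% of 6598 genes under a mean of 50, of which 6 were called. For genes of low level, a 2-fold difference between the lines was therefore not detectable at this depth and number of libraries.

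**Figure D2:**
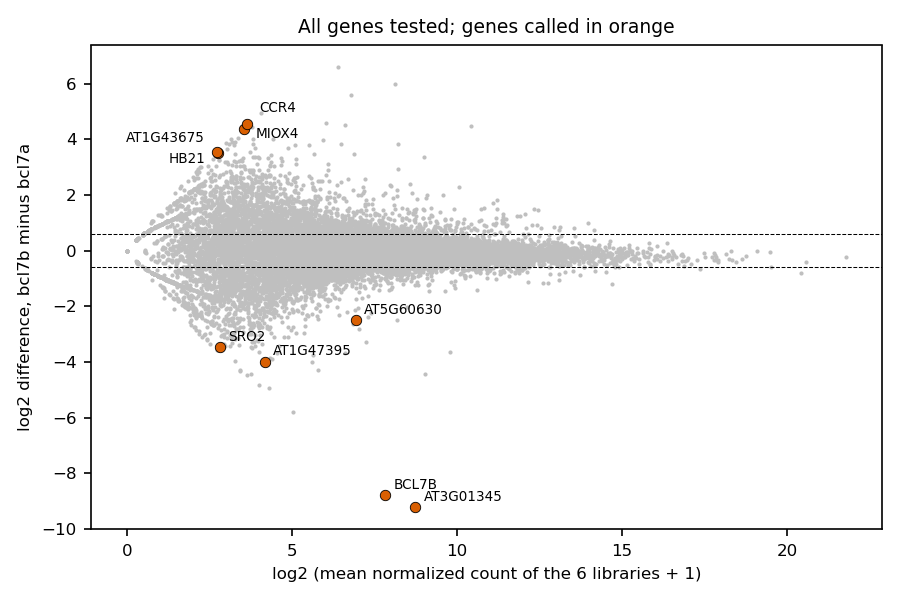
Log2 difference between bcl7b and bcl7a (vertical axis) against the log2 mean normalized count of the 6 libraries plus 1 (horizontal axis) for the 21596 genes tested; dashed lines mark a log2 difference of 0.6 in either direction. The 9 genes called are orange, and 6 of them have a mean under 50; positions of genes at 0 in a whole line depend on the pseudocount.

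AT3G01345 had the lowest p-value after BCL7B. It is a protein-coding gene on chromosome 3, from 129138 to 130749, whose product is annotated as an uncharacterized protein. It was listed at 756, 644 and 1135 normalized counts in bcl7a and at 0, 0 and 1.61 in bcl7b. Every bcl7a library was thus far above every bcl7b library (limma, adjusted p = 0.00197; log2 difference -9.22 ± 1.25, SE, a size that depends on the pseudocount and ranged from -11.6 to -7.23). In WT it was at 0, 6.26 and 11.8, which places bcl7b beside WT and bcl7a apart from both. The double mutant, which also carries the bcl7a allele, was at 46.2, 94.0 and 47.7, of which replicates 1 and 3 come from libraries that differed by less than sampling noise. The 12 brm-3, brm-1 and triple-mutant libraries were at 31.6 or less. The call was lost with a pseudocount of 0.1 (adjusted p = 0.058) and with the replicate number as a term.

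AT5G60630, another gene annotated as an uncharacterized protein (chromosome 5, from 24369650 to 24370404), was lower in bcl7b. It was at 68.1, 48.4 and 11.6 in bcl7b (42.7 ± 28.7, SD, n = 3) and at 210, 222 and 164 in bcl7a (199 ± 31.1, SD, n = 3). The log2 difference was -2.50 ± 0.44 (SE, limma, adjusted p = 0.038). WT was at 83.3, 78.6 and 57.0, below every bcl7a library and overlapping bcl7b, and the double mutant was at 68.8, 73.4 and 68.9. Over the alternative settings the adjusted p lay between 0.0084 and 0.72, and the call held in 9 of 21. Settings that changed only the threshold on the log2 difference are among the 9 and could not lose this call. Neither AT3G01345 nor AT5G60630 shared more than 0.316% of its 31-base words with another place in the genome.

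The other 6 called genes were below 50 normalized counts in the mean of both lines, so that they are named after their values were seen. The 4 genes called higher in bcl7b were listed at 0 in all 3 bcl7a and all 3 WT libraries. A genotype at 0 throughout adds no spread to the estimate shared over genotypes, so that these 4 calls rest in part on the floor. MIOX4 encodes a myo-inositol oxygenase, which opens inositol to glucuronic acid, a precursor of cell-wall sugars. It was at 33.5, 14.9 and 14.9 in bcl7b (limma, adjusted p = 0.00604) and at 14.1 to 14.8 in the double mutant. HB21 encodes a homeodomain-leucine zipper transcription factor known for a part in bud dormancy. It was at 19.0, 9.19 and 6.43 in bcl7b (limma, adjusted p = 0.048) and at 4.05 to 12.3 in the double mutant.

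The other 2 genes called higher differed from each other in the double mutant. CCR4, a CRINKLY4-related receptor-like kinase gene, was at 18.7, 26.4 and 22.6 in bcl7b (limma, adjusted p = 0.028). It was listed at 0 in the double mutant, in both triple mutants and in brm-3, and reached at most 2.96 in brm-1. No genotype but bcl7b thus had CCR4 above 3 in any library. The filter of 10 in 3 or more libraries was met by CCR4 through the bcl7b libraries alone. It was tested only because it is high there, so that its limit to bcl7b is no separate result. AT1G43675, annotated as a pseudogene, was at 7.16, 17.0 and 9.61 in bcl7b (limma, adjusted p = 0.048) and at 19.5 to 26.1 in the double mutant.

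Among the genes called lower, SRO2 and AT1G47395 were weakly expressed. SRO2 belongs to the family of RCD1-like proteins that carry a domain related to poly(ADP-ribose) polymerases. It was listed at 0 in bcl7b and in WT and at 22, 4.57 and 9.81 in bcl7a (limma, adjusted p = 0.028), with the double mutant at 11.3 to 15.9. The SRO2 call also rests in part on the floor, since genotypes at 0 throughout add no spread. AT1G47395, annotated as an uncharacterized protein, was at 7.18, 0 and 0 in bcl7b and at 28.8, 39.3 and 26.4 in bcl7a (limma, adjusted p = 0.046). WT was at 32, 50.7 and 14.6 for AT1G47395, above every bcl7b library, and the double mutant at 76.9 to 139.5.

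**Figure D3:**
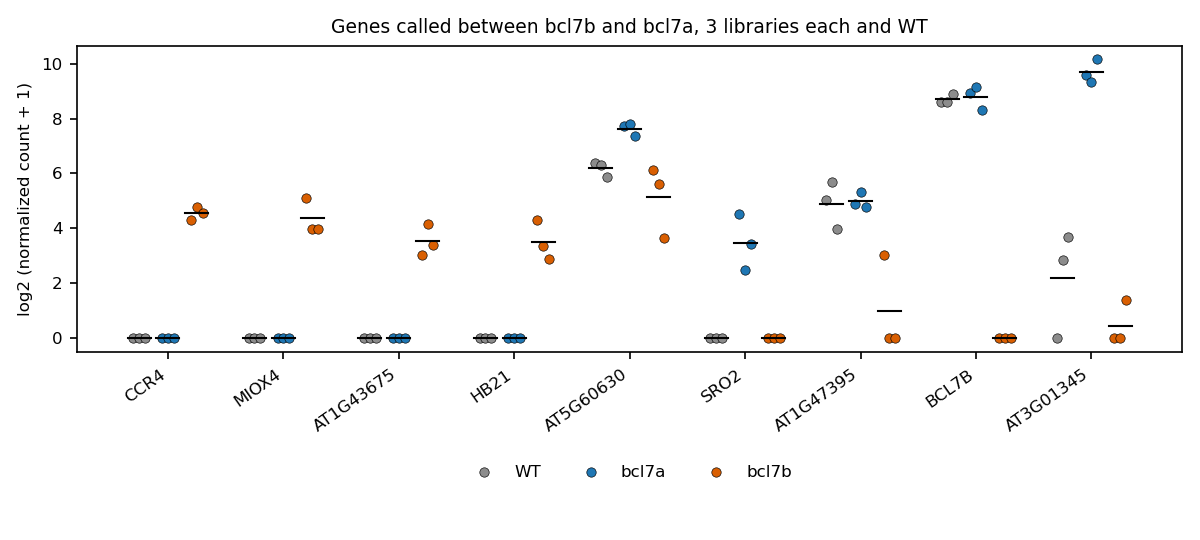
Log2 of the normalized count plus 1 of the 9 genes called, in the 3 libraries each of WT (grey), bcl7a (blue) and bcl7b (orange); the bar is the mean. The lines do not overlap for any of the 9, CCR4, MIOX4, AT1G43675 and HB21 are at 0 in WT and bcl7a, and AT3G01345 is high in bcl7a alone.

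More abundant genes with the lowest p-values stopped short of the threshold, with log2 differences from -1.73 to 1.87. The 10 genes shown are those of lowest p that were not called and had a mean of at least 100 in either line, a choice made after the values were seen. TMAC2, a gene of the ABI five-binding protein family that restrains abscisic acid signalling, was at 292, 266 and 240 in bcl7b and at 42.7, 64.1 and 135 in bcl7a. The log2 difference was 1.87 ± 0.37 (SE, limma, adjusted p = 0.075), and without bcl7a replicate 3 it passed the test (adjusted p = 0.012). WT was at 74.2, 83.4 and 108, within the range of bcl7a.

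GDU4 belongs to the GLUTAMINE DUMPER genes, whose products promote the export of amino acids. It was at 178, 116 and 109 in bcl7b and at 380, 552 and 189 in bcl7a. The log2 difference was -1.37 ± 0.27 (SE, limma, adjusted p = 0.075). WT was at 341, 353 and 368. The call was made without bcl7a replicate 3 (adjusted p = 0.00171) or without bcl7b replicate 1 (adjusted p = 0.031).

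AT2G45290, annotated as a transketolase, an enzyme of the Calvin cycle and the pentose phosphate pathway, had small spread in both lines. It was at 185, 173 and 190 in bcl7b (183 ± 8.46, SD, n = 3) and at 62.6, 73.5 and 66.5 in bcl7a (67.6 ± 5.51, SD, n = 3). The log2 difference of 1.42 ± 0.31 (SE) had an adjusted p of 0.13 in limma, in a fit that shares its estimate of the spread over all genotypes. PUP7, of the purine permease family, was at 504, 619 and 700 in bcl7b and at 175, 128 and 429.5 in bcl7a (log2 difference 1.5 ± 0.35, SE, limma, adjusted p = 0.2).

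The remaining 6 of these genes were lower in bcl7b. AT3G27030, an uncharacterized protein, was at 420, 514 and 343 in bcl7b and at 982, 1537 and 991 in bcl7a (log2 difference -1.44 ± 0.30, SE, limma, adjusted p = 0.11). AT4G35320, also uncharacterized, was at 278, 279 and 285 in bcl7b and at 471, 685 and 502 in bcl7a (log2 difference -0.96 ± 0.22, SE, limma, adjusted p = 0.17). WT was at 588 to 612 for AT4G35320 and the double mutant at 220 to 301. AT4G34760, of the SAUR-like auxin-responsive family, was at 1414, 1334 and 1063 in bcl7b and at 2849, 3207 and 1644 in bcl7a, with WT at 2843 to 3703. AT3G49640 (an aldolase-type TIM barrel protein), AT5G05180 and AT1G04800 (a glycine-rich protein) had log2 differences of -1.73, -1.06 and -1.10. All 10 genes kept their direction under every setting tried. The settings re-use the libraries by which these genes were chosen, so that this is no separate evidence.

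**Figure D4:**
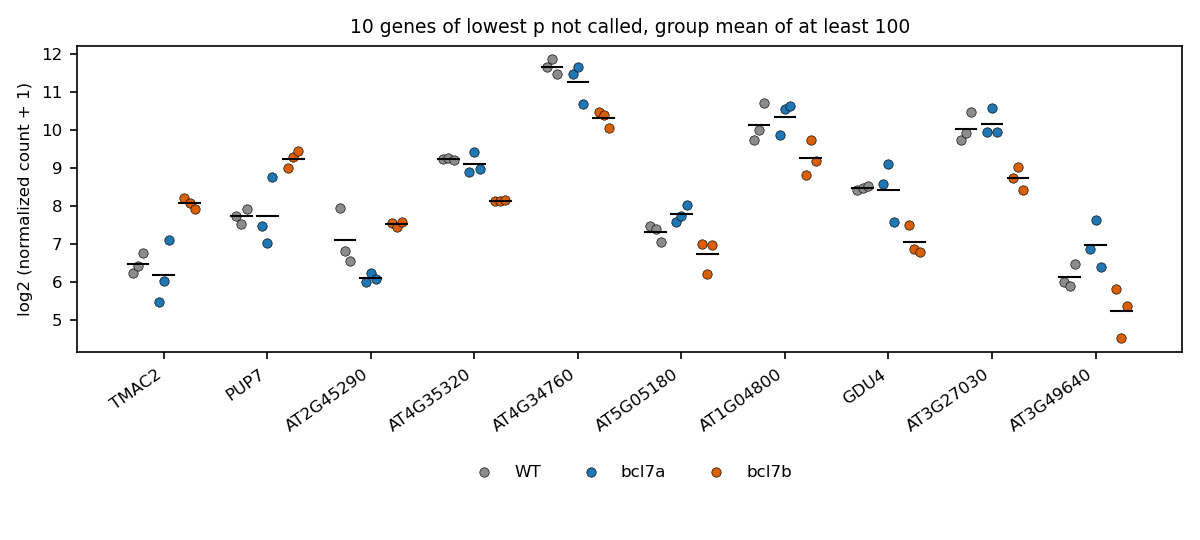
Log2 of the normalized count plus 1 of the 10 genes of lowest p that were not called and had a mean of at least 100 in either line, in the libraries of WT (grey), bcl7a (blue) and bcl7b (orange); the bar is the mean. TMAC2, PUP7 and AT2G45290 are higher and the other 7 lower in bcl7b, without overlap of the mutant lines.

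For the genes of vegetative phase change, no member of the MIR156, MIR157 or SPL lists passed the test. miR156 and miR172 mark the 2 ends of this pathway, since miR156 restrains the SPL genes in juvenile leaves and SPL9 and its relatives promote MIR172B. The mature sequences from TAIR10.1 are printed with bases 2 to 8, the seed by position, in capitals, because the MIR156A and MIR156C genes give the same 5p product and so share its seed.
miR156a-5p: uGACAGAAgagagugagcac
miR156c-5p: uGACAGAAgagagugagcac
miR172b-3p: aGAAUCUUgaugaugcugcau
The libraries measured long transcripts, so that the values below are of primary transcripts and not of mature microRNAs. MIR156C was at 480, 434 and 504 in bcl7b (473 ± 35.4, SD, n = 3) and at 541, 764 and 629 in bcl7a (644 ± 112, SD, n = 3). The lines did not overlap, and the log2 difference was -0.43 ± 0.24 (SE, 95% interval -0.93 to 0.06, limma, adjusted p = 0.69). MIR156A was at 129, 29.4 and 24.5 in bcl7b and at 54.3, 102 and 60.7 in bcl7a, and the lines overlapped (log2 difference -0.60 ± 0.56, SE, limma, adjusted p = 0.86). Of the 11 MIR156 and MIR157 genes, 4 passed the filter on low values, and all 4 had a log2 difference below 0 with 0 at an unadjusted p under 0.05.

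The 11 SPL genes, all tested, were split between 6 above and 5 below 0, with a median log2 difference of 0.02 beside -0.01 over all genes. SPL3 was at 1445, 824 and 682 in bcl7b and at 1114, 2237 and 748 in bcl7a (log2 difference -0.40 ± 0.33, SE, limma, adjusted p = 0.84), and was above 0 in 1 of the other settings. SPL9 was at 56.6, 62.2 and 29.8 in bcl7b and at 55.3, 48.0 and 14.8 in bcl7a (log2 difference 0.45 ± 0.96, SE, limma, adjusted p = 0.96), and was below 0 in 1 setting. SPL15 was at 19.4, 14.5 and 0 in bcl7b and at 17.9, 1.53 and 4.2 in bcl7a (log2 difference 0.12 ± 1.23, SE, limma, adjusted p = 1.0), with the direction turned in 6 settings.

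SPL13A and SPL13B cannot be told apart in these data, since all of their 31-base words occur at more than 1 place in the genome. SPL13B was at 0, 92.3 and 161 in bcl7b and at 166, 172 and 181 in bcl7a (log2 difference -2.82 ± 1.35, SE, limma, adjusted p = 0.63). SPL13A was at 131, 64.7 and 25.8 in bcl7b and at 84.0, 73.5 and 5.61 in bcl7a (log2 difference 0.82 ± 1.16, SE, limma, adjusted p = 0.92). Summed over both copies, bcl7b held 131, 156.9 and 187 and bcl7a 250, 246 and 187, and the 0 of SPL13B in bcl7b replicate 1 stood beside the highest SPL13A value of the 6 libraries.

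Downstream of the SPL genes, MIR172B was listed at 0 in all 3 bcl7b libraries and at 9.24, 12.1 and 6.71 in bcl7a. It did not pass the test over all genotypes (limma, adjusted p = 0.25) and did when the 6 libraries were fitted alone (adjusted p = 0.048). In that fit a line at 0 throughout adds no spread, and the SE was 0.26 in place of 0.82, so that the call rests on the floor. MIR172B was the only 1 of the 216 list members tested below to be called in any setting. WT was at 0, 6.58 and 0, and all these values are near the floor of the file. Of the AP2-like targets of miR172, which delay flowering and adult traits, SMZ was at 63.6, 43.8 and 51.9 in bcl7b and at 12.6, 3.22 and 62.1 in bcl7a, which overlapped (log2 difference 1.80 ± 0.65, SE, limma, adjusted p = 0.48).

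Genes of 16 lists of processes, 216 of whose 234 members were tested, included no call in either direction in limma. At an unadjusted p under 0.05, 12 members were higher in bcl7b (5.56%, against 3.71% of all genes) and 8 lower (3.7%, against 4.17%). With every library rescaled to the same total these counts were 22 and 3, beside 1660 higher and 333 lower of all 21596 genes.

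The SWI/SNF list, without the BCL7 genes themselves, held 19 subunits, all of them tested. The median log2 difference was 0.17, and 1 member was higher and 1 lower at an unadjusted p under 0.05. SWI3A, a scaffold subunit, was at 155, 189 and 186 in bcl7b and at 107, 50 and 119 in bcl7a (log2 difference 1.02 ± 0.32, SE, limma, adjusted p = 0.39). ARP7, an actin-related subunit, was at 237, 208 and 155 in bcl7b and at 426, 297 and 275 in bcl7a (log2 difference -0.73 ± 0.35, SE, limma, adjusted p = 0.63). BRM was at 268, 198 and 228 in bcl7b and at 237, 174 and 190 in bcl7a, and SYD at 169, 150 and 273 against 119, 225 and 240, and both overlapped.

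Glucosinolate genes, which make the sulfur-rich defence compounds of the mustard family, had the most members at an unadjusted p under 0.05 in 1 direction. Of 20 genes, 16 were above 0, beside 10368 of all 21596 genes. At that p, 5 were higher (against 3.71% of all genes) and 0 lower (against 4.17%), and the median log2 difference was 0.28. MYB51, which activates the indolic branch, was at 598, 723 and 897 in bcl7b and at 220, 188 and 442 in bcl7a, without overlap. The log2 difference was 1.46 ± 0.40 (SE, limma, adjusted p = 0.3), and WT stood below both lines at 151, 103 and 139.

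The enzymes among these 5 genes differed by less than MYB51. CYP83A1, of the aliphatic branch, was at 1507, 1756 and 1660 in bcl7b and at 1313, 995 and 1428 in bcl7a (log2 difference 0.41 ± 0.18, SE, limma, adjusted p = 0.59). SUR1, the C-S lyase of the core pathway, was at 339, 366 and 299 in bcl7b and at 244, 190 and 259 in bcl7a (log2 difference 0.54 ± 0.23, SE, limma, adjusted p = 0.58). MAM1, an enzyme gene, and MYB29, a MYB gene as MYB51 is, both of the aliphatic branch, overlapped between the lines. Their log2 differences were 0.45 ± 0.21 and 1.71 ± 0.79 (SE). The list count of 5 dropped to 2 without bcl7a replicate 2, where the median was 0.11, and to 2 without bcl7b replicate 2, without the variance trend or with the 6 libraries and WT fitted together. It was 1 with the replicate number as a term in the fit of the 6 libraries, 3 without bcl7b replicate 1 or replicate 3, and 10 with the same total in every library. Under that last scaling, 1660 of all 21596 genes were higher at an unadjusted p under 0.05.

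Light-harvesting genes, whose products bind the antenna chlorophyll of both photosystems, mostly had lower values in bcl7b on the deposited scale. Their summed level was 7962160, 9512120 and 9450990 in bcl7b and 11278700, 10394600 and 11085400 in bcl7a, and 9424180, 13415700 and 9723230 in WT. Of the 20 genes, 17 were below 0, beside 10917 of all 21596 genes. Without overlap, 11 were lower (against 6.92% of all genes) and 0 were higher, and the median log2 difference was -0.24. In the fit that shares its spread over all genotypes, none was called, 0 had an unadjusted p under 0.05, and the lowest adjusted p was 0.77. With the 6 libraries fitted alone, 1 was lower at an unadjusted p under 0.05, 0 were higher and 0 were called. With the filter at a mean of 50 added to that fit, 2 were lower, 0 higher and 0 called. LHCB1.4 was at 482238, 634800 and 642603 in bcl7b and at 771456, 1066530 and 830704 in bcl7a (log2 difference -0.60 ± 0.41, SE, limma, adjusted p = 0.77).

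The median of this list depended on the scaling. It was 0.02 after quantile normalization, beside 0 over all genes. That step gives every library the same set of highest values, so that it cannot show a shift of genes as abundant as these. With the same total in every library the median was -0.04, still below the 0.18 over all genes. The 20 genes held 26.7% to 30% of the sum of a bcl7b library and 28.3% to 31.8% of that of a bcl7a library, and these shares overlapped. LHCB1 and LHCB2 genes shared up to 36.2% of their 31-base words with other places in the genome, so that the split of reads among them is uncertain.

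The other lists had few members past an unadjusted p of 0.05, beside 3.71% higher and 4.17% lower over all genes. Salicylic acid genes had 2 higher and 0 lower of 15 tested (NPR1 and FMO1), with a median log2 difference of 0.32, and 4 were higher without overlap (against 5.98% of all genes). Phosphate starvation genes had 1 higher and 3 lower of 16, with a median of 0.01, and jasmonate genes 2 higher and 0 lower of 23 (MYC2 and ERF1). MYC2, a master regulator of jasmonate responses, was at 1610, 1821 and 1775 in bcl7b and at 909, 492 and 1630 in bcl7a, which overlapped (log2 difference 0.94 ± 0.38, SE, limma, adjusted p = 0.54), and WT was at 453, 409 and 552. The cold and the dark and starvation lists had 0 higher and 1 lower each, of 11 and 11 tested, and the flowering, morning clock, evening clock, heat and flavonoid lists had 0 in either direction. CCA1, a morning oscillator gene, was at 175, 179 and 190 in bcl7b and at 108, 101 and 67.7 in bcl7a without overlap (log2 difference 0.99 ± 0.85, SE, limma, adjusted p = 0.85). That SE comes from the spread shared over all genotypes.

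**Figure D5:**
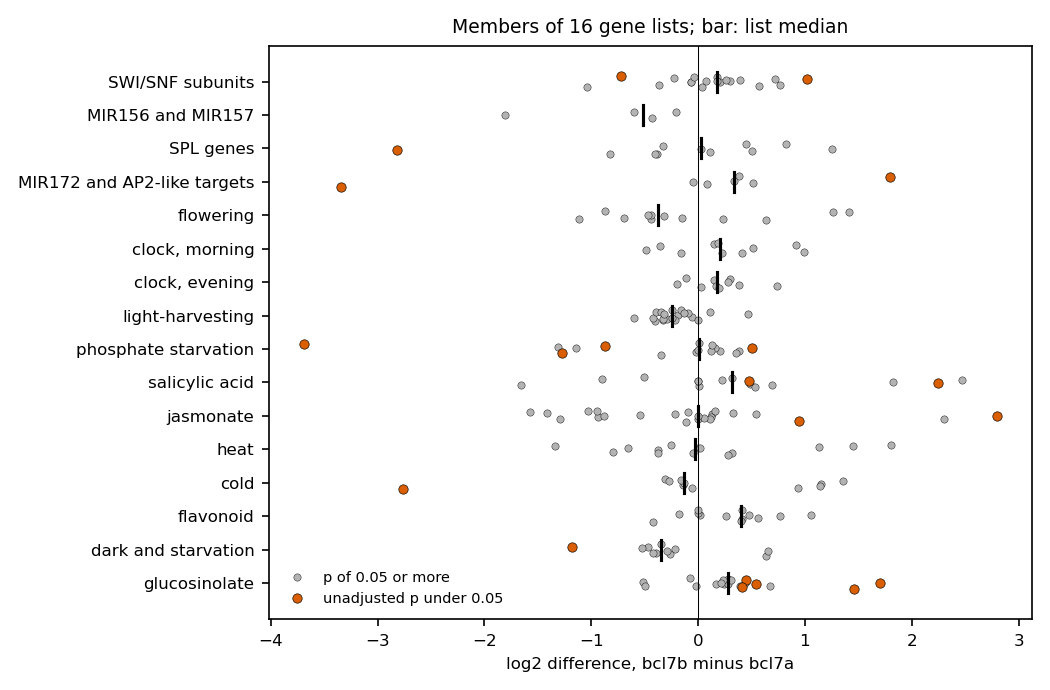
Log2 difference between bcl7b and bcl7a (horizontal axis) of each tested member of the 16 lists (rows); orange points had an unadjusted p under 0.05 and the bar is the list median. The glucosinolate row holds 5 orange points, all above 0, and 17 of the 20 light-harvesting genes lie below 0. Over all 21596 genes tested, 3.71% were higher at that p and 10917 lay below 0.

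The difference between the single mutants was also set beside 3 contrasts that share no library with it. Over all 21596 genes, Pearson's r with the difference of bcl7a bcl7b from WT was 0.09, that with brm-3 minus WT 0.01 and that with brm-1 minus WT -0.01. Over the 9 genes called, r was 0.44, 0.42 and 0.62, and without BCL7B, which is also disrupted in the double mutant, it was -0.06 with bcl7a bcl7b minus WT over 8 genes. These r values run across genes, not across replicates, and all values come from 1 joint normalization. Of the 4 genes called higher in bcl7b, all but CCR4 were above 0 in every library of the double mutant, brm-3 and brm-1. All 4 were listed at 0 in WT, as were 5 of the 9 called. Such genes cannot lie below WT, so that this direction was fixed in advance, which also bears on r over the called genes. WT libraries listed more genes at 0 (13250 to 16191) than the double mutant, brm-3 and brm-1 (11258 to 12123). How many other genes at 0 in WT rose alike was not counted.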

How the data were processed

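RNA-seq was compared in 3 bcl7b and 3 bcl7a libraries, grouped by their titles. Per the study's methods and the submitters' processing notes, reads were quantified with Salmon 1.5.1 against AtRTD2 and passed to DESeq2. The authors deposited 1 table of 33681 genes in 24 libraries, whose values are a normalized signal (size-factor-normalized counts), not whole reads, so that no count test was run and intervals of counting error could not be given. The main fit used log2(value + 1), genes that reached 10 in 3 or more libraries, and limma 3.58.1 in R 4.3.3 (lmFit, eBayes with a trend) over all genotypes. Replicates 1 and 3 of bcl7a bcl7b differed by less than sampling noise (mean squared difference over sum 0.0981, against 13.7 to 149 for the other 23 replicate pairs) and were counted as 1 sample, which left 23 in the fit. The study's methods call the 3 replicates of a genotype biological and separately sequenced, without saying what set them apart, so that p-values measure the spread between these samples. Changes in log2(value + 1) understate those of low genes. The fit was tested on simulated data with normal noise and changes planted only in genes of higher level. That test does not cover calls of genes listed at 0 in a whole line. Symbols came from the TAIR10.1 annotation (32954 of the identifiers were found).

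The members and gene lists were chosen with earlier results of these data known. Named genes were BCL7A, BCL7B, MIR156A, MIR156C, SPL3, SPL9, SPL13A, SPL13B, SPL15, the called genes without overlap and with a mean of at least 50 in the higher line (at most 10 in each direction), and called list members; others are named after their values were seen. CBF1, of the cold list, was not analysed here. Alternatives were other pseudocounts, filters, scalings, library sets, weights and thresholds, the replicate number as a term, and leaving out each library.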

Additional observations from a re-analysis of the deposited data

How the results depend on the processing

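The counts of genes called higher and lower in bcl7b were 4 and 5. They were 11 and 8 with a pseudocount of 0.1, 1 and 3 with a pseudocount of 5, 0 and 3 with a filter at a mean of 50 over all libraries, and 1 and 2 with the same total in every library. They were 7 and 6 with the 6 libraries alone, again 7 and 6 with the 9 libraries of WT, bcl7a and bcl7b, and 1 and 3 with a weight per genotype. A filter at a mean of 50 with the 6 libraries alone, an alternative chosen after seeing the data, gave 0 and 2. Without a filter, after quantile normalization, without the variance trend, with all 24 libraries and with other thresholds on the log2 difference, both counts stayed within 1.5 times. Leaving out 1 library gave 1 to 7 higher and 2 to 18 lower.

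With the replicate number as a block in the fit of the 6 libraries, 0 genes were higher and 0 lower (limma, with 617 and 797 at an unadjusted p under 0.05), and BCL7B had an adjusted p of 0.7. Deviations of same-numbered bcl7a and bcl7b libraries from their means had correlations of 0.00, -0.03 and 0.04 over genes, so that the numbers were not taken to pair the samples.

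Over the genes called, Pearson's r with bcl7a bcl7b minus WT was 0.42 to 0.45 when 1 library was left out, that with brm-3 minus WT 0.41 to 0.44 and that with brm-1 minus WT 0.60 to 0.64. Spearman's rho was 0.23, 0.23 and 0.72. Over all genes tested r was 0.0906, 0.0107 and -0.0078. The causes of these moves were not tested. With a 95% interval within a 2-fold change for 44.8% of all genes tested, most smaller differences, above all of genes under a mean of 50, are beyond this comparison.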

Other observations

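With the 6 bcl7a and bcl7b libraries fitted alone, 13 genes were called, and 10 of them were not called in the fit over all genotypes. They were named after their values were seen, and none reached 50 normalized counts in any of the 6 libraries. Each of the 10 was listed at 0 in a whole line, which adds no spread to that fit, so that these calls rest on the floor. Genes called higher and listed at 0 in all 3 bcl7a libraries included receptor genes. CRK14, a cysteine-rich receptor-like kinase gene, was at 15.4, 9.38 and 17.5 in bcl7b, and RLP48, a receptor-like protein gene, at 9.35, 9.24 and 12.9 (limma, adjusted p = 0.048 for each). SUS4, a sucrose synthase gene, was at 12.3, 21.8 and 26.3 in bcl7b, and at 7.69, 32.2 and 1.53 in WT (limma, adjusted p = 0.048). The uncharacterized gene AT1G70335 was at 47.0, 26.9 and 20.7 in bcl7b, and at 116, 0 and 111 in WT (limma, adjusted p = 0.048).

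Genes called lower in that fit and listed at 0 in all 3 bcl7b libraries included AT4G24420, an RNA-binding protein gene, at 24.6, 21.9 and 12.4 in bcl7a and 0 in WT. AGP19, an arabinogalactan protein gene, was at 5.49, 7.54 and 8.31 in bcl7a, and at 0, 27.6 and 17.5 in WT. In the fit over all genotypes, the adjusted p was 0.075 for AT4G24420 and 0.56 for AGP19 (limma).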
